A study of Mus musculus with 2 samples.

Results

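RIKEN's full-length cDNA project named mouse transcripts after the clones they were first read from, and one of its libraries was made from the pancreas of 10 day old male mice. Clones of that library record transcripts that were present in developing pancreas before many of them had a gene name. Gene probes were counted here as pancreas-library clones where their identifier in the files starts with AK, a GenBank prefix for such cDNAs, and their description names a pancreas cDNA. There were 44 of them among 41174 gene probes, each read by 1 spot per array and each with its own accession. They make up 44 of the 11181 AK probes, and their clone numbers share 1 prefix, which no AK probe outside the set carries. A library of adult pancreatic islet cells, with 15 AK probes, falls outside this rule and is described separately.

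The RNA compared came from the whole pancreas of mice at postnatal day 3. The mutant pups were homozygous for a Glis3 allele that the labels write Glis3zf/zf and also call Glis3KO, and the controls were wild type (WT). Glis3 encodes a zinc finger transcription factor of the Krüppel-like type, and the series addressed its role in pancreatic beta cells, the source of insulin. Each genotype was a pool of RNA from 2 pups. The pools were set against each other on 2 arrays of 2 colours, the mutant labelled with Cy5 on the first and with Cy3 on the second. Since the second array only swaps the dyes between the same pools, there was 1 sample per genotype, no test between genotypes was possible and no p-value was computed. Every ratio is the log2 of the mutant signal divided by the wild-type signal, and where 2 are given the first is from the array that carried the mutant in Cy5. They come from a background correction with an offset of 50, which shrinks ratios of dim spots. How the mutant allele was made, the sex of the pups and the strain are not stated in the sources used here. The probe for Glis3 itself had signals of 114.9 (mutant) against 155.3 (wild type) and 127.8 against 115.4, with ratios of -0.02 and 0.01. Where it lies relative to the mutated part is not given, so it does not check the labels.

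Newborn pancreas is mostly exocrine tissue, in which acinar cells make digestive enzymes and pack them into zymogen granules. The islets hold the hormone cells, and ducts, vessels, mesenchyme and blood cells lie between them. A cDNA library of whole pancreas can therefore hold clones from any of these cells, together with clones of transcripts that all cells use. RefSeq has since given names to many such clones, some as protein-coding genes and others as long non-coding RNAs (lncRNAs), which are transcripts without a recognised protein product.

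The clones were a mixed set. In the files, 21 carried a named product, 12 were hypothetical proteins and 11 were unknown or unclassifiable. Through their clone numbers, 32 of the 44 matched 1 symbol among RefSeq genes (assembly GRCm38.p6), 24 of them protein-coding genes and 8 lncRNAs, and 12 had no match. Of the 44, 42 were well above background by the scanner software's flag. The exceptions were the clones of Gabpb2, which encodes a subunit of a GA-binding transcription factor, and Atg2a, an autophagy lipid transfer protein. Their mean signals were 72.2 (mutant) against 76.5 (wild type) for Gabpb2 and 58.1 against 59.4 for Atg2a, over a median local background of 46.5 to 50. No clone was saturated. The 42 clones were brighter than other AK probes, with a median log2 intensity of 8.06 against 7.24.

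Most pancreas-library clones differed little between the pools, and those that differed most were lower in the mutant. The clone of the lncRNA 1810053B23Rik was lower by 2.42-fold and the clone of Lyrm9 by 1.41-fold. Of the 42 clones, 39 had a mean ratio within 0.3 of 0. A clone was called changed under a 2-fold rule if its mean ratio reached 2-fold and each array reached 1.5-fold the same way. By this rule 1 clone was lower and 0 were higher. Of 9558 other AK probes well above background, 0.0732% passed it, 0.0523% lower and 0.0209% higher, and of all 38864 such probes 0.237% passed, 0.0952% lower and 0.142% higher. A looser rule asked for a log2 ratio of at least 0.32 in size, the same way on each array. By it 2 clones were lower and 0 higher, or 4.76%. Of the other AK probes 1.2% passed the looser rule, 0.983% lower and 0.22% higher, and of all probes 2.1% passed, 1.3% lower and 0.793% higher.

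**Figure D1:**
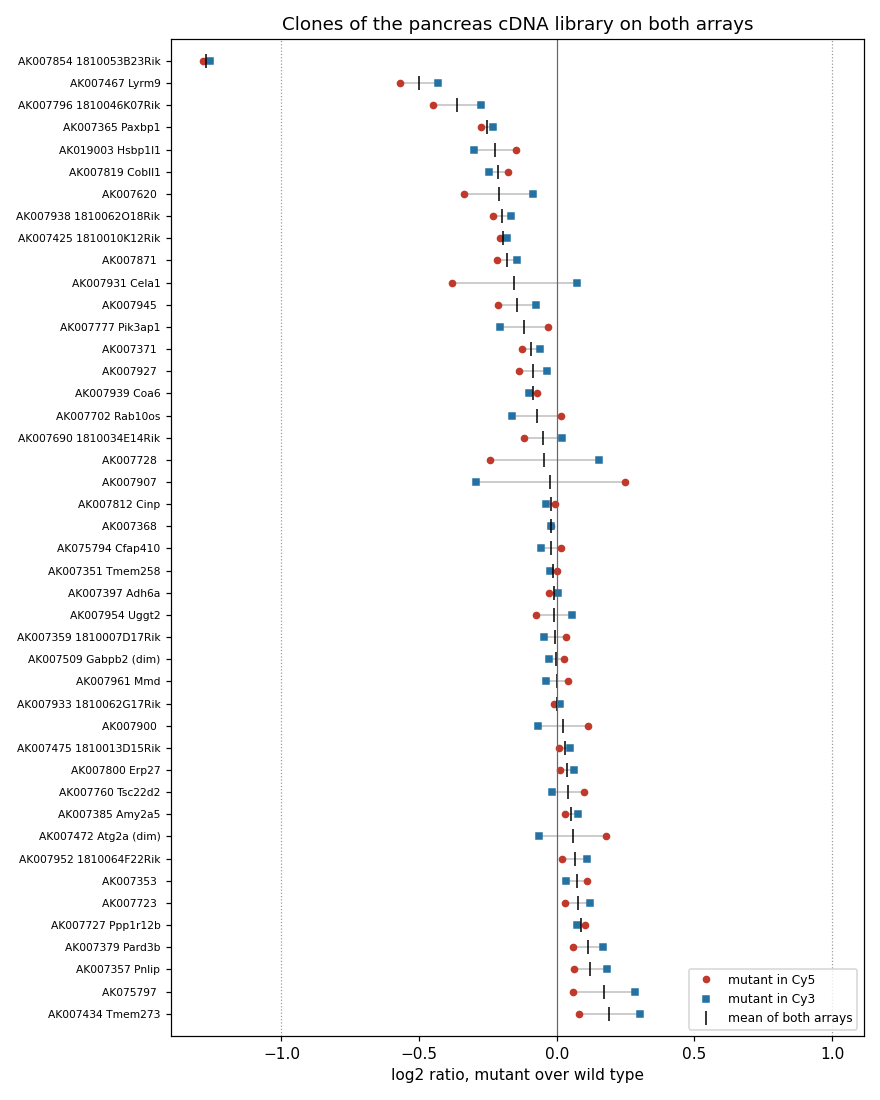
Log2 ratio of mutant over wild type (x axis) for each of the 44 clones (y axis, accession and RefSeq name where 1 was matched). Red circles show the mutant in Cy5, blue squares the mutant in Cy3, black ticks their mean, dotted lines 2-fold, and "dim" marks the 2 clones not well above background; the clone of 1810053B23Rik stands at -1.27 and no other clone reaches 2-fold.

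The clone AK007854, that of 1810053B23Rik, carried the largest difference. The files describe it as an unknown EST and place its probe on chromosome 16 from 92509176 to 92509235, in coordinates of an unstated genome build. Its mean spot intensity, not normalised, was 339.9 in the mutant against 1010 in the wild type on the first array, and 342.3 against 869.6 on the second. Both mutant signals were thus below both wild-type signals. Its ratios were -1.29 and -1.26, so that each array lay 0.01 from the mean of -1.27, where the technical SD of a mean ratio over other AK probes not past the 2-fold rule was 0.07. In whole tissue, fewer cells that make a transcript and less of it per cell cannot be told apart. RefSeq lists the gene as an lncRNA, between Gm30588 and the microRNA gene Mir802. No other probe with coordinates lies within 60 kb of it in the files. The nearest, 240.4 kb away, reads Setd4, with ratios of -0.19 and -0.12. The next genes on that side were Cbr1, at -0.09, and Cbr3, at 0.73, both of which encode carbonyl reductases. The clone's ratio was thus not seen at these 3 genes.

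The clone of Lyrm9, a gene named for its LYR motif (AK007467; chromosome 11, 78563826 to 78564825), was the other one past the looser rule. Its coordinates span far more bases than the probes of most other clones. The signals were 273.6 in the mutant against 498.2 in the wild type, and 264.8 against 365.5. Again both mutant signals lay below both wild-type ones, and the ratios were -0.57 and -0.43. Signals before normalisation lean this way on the first array, where the median gene spot read 208.2 (mutant) and 265 (wild type). No other probe for Lyrm9 could be set beside it by the ties used here.

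The third lowest was the clone of 1810046K07Rik (AK007796; chromosome 9, 51362630 to 51362689), which RefSeq lists as protein coding and the files as a hypothetical protein. It is among the brightest of the set. Its signals were 1655 in the mutant against 2705 in the wild type, and 1607 against 2218 on the other array. Its ratios of -0.45 and -0.27 put it just outside the looser rule, since only the first array reached that size. With median centring in place of loess its ratios were -0.45 and -0.43, and it passed. Next outside were the clone of Paxbp1, a nuclear protein that binds PAX factors, at -0.27 and -0.23, and that of the lncRNA 1810010K12Rik, at -0.21 and -0.18. The clone of Hsbp1l1 had -0.15 and -0.30, and that of Cobll1 -0.18 and -0.25. The sign was the same on both arrays at each of these clones.

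**Figure D2:**
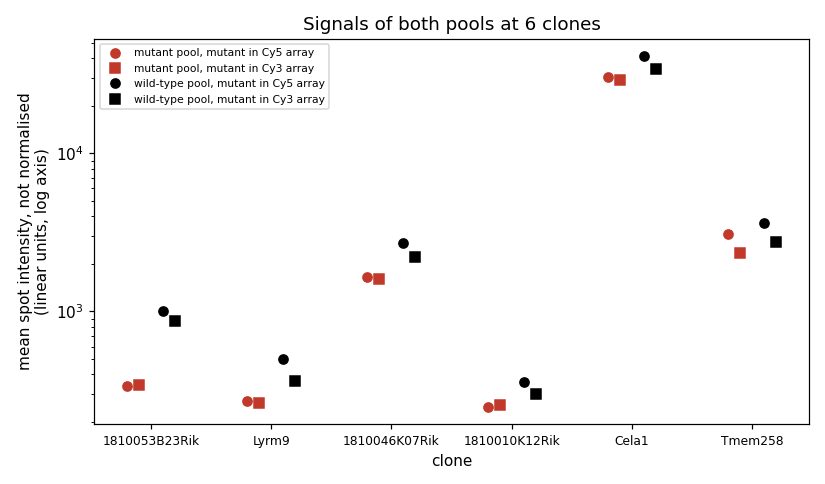
Mean spot intensity, not normalised (y axis, log scale), of 6 clones (x axis, by RefSeq name) in the mutant pool (red) and the wild-type pool (black), with the mutant in Cy5 (circles) or in Cy3 (squares). For 1810053B23Rik the mutant signals are 339.9 and 342.3 and the wild-type signals 1010 and 869.6, while for Tmem258 the signals of the pools overlap.

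At the upper end no clone passed either rule. The highest mean ratio was that of the clone of Tmem273, a membrane protein gene, at 0.19 (0.08 and 0.30). This clone was dim, with signals of 83.4 in the mutant against 102.6 in the wild type, and 108.2 against 79.2. Its mean ratio was 0.54 by the scanner software's values, and there it passed the looser rule. A clone described as the chromosome 12 segment D12Ertd647e (AK075797) followed at 0.17, with 0.06 and 0.28. The clone of the pancreatic lipase gene Pnlip had 0.12, that of the cell polarity gene Pard3b 0.11, and that of Ppp1r12b, a targeting subunit of myosin phosphatase, 0.09. All 5 were above 0 on both arrays. None reached 0.32 on either array.

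No clone of a digestive enzyme gene passed either rule. The clone of Cela1, the pancreatic elastase 1 gene (AK007931; chromosome 15, 100742663 to 100742722), was the brightest of the set. Its signals were 30343 in the mutant against 40983 in the wild type, and 28913 against 34025. After normalisation its ratio was -0.38 on the first array and 0.07 on the second. The sign thus differed between the arrays only after normalisation, since the signals were lower in the mutant on both. The Cela1 probe with a RefSeq identifier had -0.29 and -0.14. The clone described as a pancreatic triglyceride lipase fragment, matched to Pnlip (AK007357; chromosome 19, 58273410 to 58273469), had 0.06 and 0.18, and the RefSeq probe of Pnlip 0.18 and 0.22. The clone matched to the pancreatic amylase gene Amy2a5 (AK007385), listed as an unknown EST, had 0.03 and 0.08. It was far dimmer than the Cela1 clone, with mean signals of 164.6 (mutant) against 177.1 (wild type). Its ratio therefore does not settle how amylase mRNA as a whole differed. A further unknown EST on chromosome 3 (AK007728), which the files tie to the same consensus transcript, was brighter than the Amy2a5 clone and had -0.24 and 0.15. Amylase genes are near-identical copies, so these clones may read more than 1 of them.

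Clones of lncRNAs did not share a direction. Of the 8, 3 were below 0 and 2 above 0 on both arrays, and 3 changed sign between the arrays. Their median was -0.06 and only 1810053B23Rik passed a rule. Besides it, 1810062O18Rik had -0.23 and -0.17. The clone of 1810010K12Rik (AK007425; chromosome 2, 19496690 to 19496749) is the RefSeq neighbour of Ptf1a, the gene of a transcription factor of acinar cells. It had signals of 249.7 in the mutant against 355.8 in the wild type, and 257.4 against 299.1. Ptf1a was on the other side of 0, with signals of 858.4 against 687.2 and 734.7 against 588.5 and ratios of 0.61 and 0.44. The pools thus differed in opposite directions at these neighbours, on both arrays, though only Ptf1a passed the looser rule. The clone of 1810007D17Rik, which RefSeq lists beside Pnlip, had 0.03 and -0.05. The clones of 1810064F22Rik, at 0.02 and 0.11, and of 1810013D15Rik, at 0.01 and 0.05, lay just above 0. Those of Rab10os, at 0.02 and -0.16, and of 1810034E14Rik, at -0.12 and 0.02, changed sign.

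Of the named clones, 3 belong to genes of the endoplasmic reticulum, the compartment where acinar cells fold and glycosylate their enzymes. Those of Uggt2 and Erp27 were named by function after their values were seen, and that of Tmem258 as among the 5 brightest. The grouping itself was made after the values were seen. Tmem258, a subunit of the oligosaccharyltransferase that adds sugar chains to new proteins (AK007351; chromosome 19, 9403015 to 9403704), was the second brightest and had 0.00 and -0.03. Uggt2, a glucosyltransferase of glycoprotein quality control, had -0.08 and 0.06. Erp27, a protein disulfide isomerase family member, had 0.01 and 0.06 by its clone, which was dim with a mean signal of 76.8 in the mutant. The RefSeq probe of Erp27, with 1116 in the mutant against 1153 in the wild type and 1174 against 982.4, had 0.23 and 0.41. The clone thus showed less of a difference than the brighter probe.

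The remaining clones covered many cell functions. The clone matched to Coa6, a mitochondrial protein gene that helps to assemble cytochrome c oxidase, had -0.07 and -0.10. Its probe is listed in the opposite orientation to the Coa6 RefSeq probe beside it, so it may not read Coa6 mRNA. An unmatched clone weakly similar to a mitochondrial complex I subunit (AK007620) had -0.34 and -0.09. A clone described as GDP dissociation inhibitor 3, a protein that recycles Rab GTPases (AK007871), had -0.22 and -0.14. Pik3ap1, an adaptor of phosphoinositide 3-kinase, had -0.03 and -0.21. Among clones of the nucleus, a product named methyl-CpG binding domain protein 1 (AK007371) had -0.13 and -0.06, and Cinp, a protein that binds cyclin-dependent kinase 2, had -0.01 and -0.04. The alcohol dehydrogenase gene Adh6a had -0.03 and 0.01 and Mmd, a membrane protein gene, 0.04 and -0.04. A clone described as envoplakin, a protein of epithelial junctions (AK007353), had 0.11 and 0.03, and one described as the heme-regulated kinase of translation factor eIF2 alpha (AK007723) 0.03 and 0.12. The clone of the Y-linked ubiquitin-activating enzyme (AK007945; chromosome Y, 178246 to 178305) had -0.21 and -0.07. The clones of Cfap410, at 0.02 and -0.06, Tsc22d2, at 0.10 and -0.02, and 1810062G17Rik, at -0.01 and 0.01, changed sign between the arrays. So did a hypothetical protein on chromosome 19 (AK007900), at 0.11 and -0.07. The remaining pair of unknown ESTs had -0.14 and -0.04 (AK007927) and -0.02 and -0.02 (AK007368). A hypothetical protein on chromosome 5 (AK007907) had the widest split, with 0.25 and -0.29. Its normalised ratios thus opposed each other, and the mean of -0.02 carries little.

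The 2 dye orientations give a measure of repeatability for the set. Over the 42 clones the ratios of the arrays had Pearson's r = 0.78 and Spearman's rho = 0.51. Without AK007854 r was 0.48 and rho 0.47, so the higher r rests on that clone, while rho changed little. Over other AK probes r was 0.47 and rho 0.27. These correlations are across probes of the same pair of pools, and probes are not replicates. Of the 42 clones, 17 were below 0 on both arrays, 11 were above 0 on both, and 14 changed sign.

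**Figure D3:**
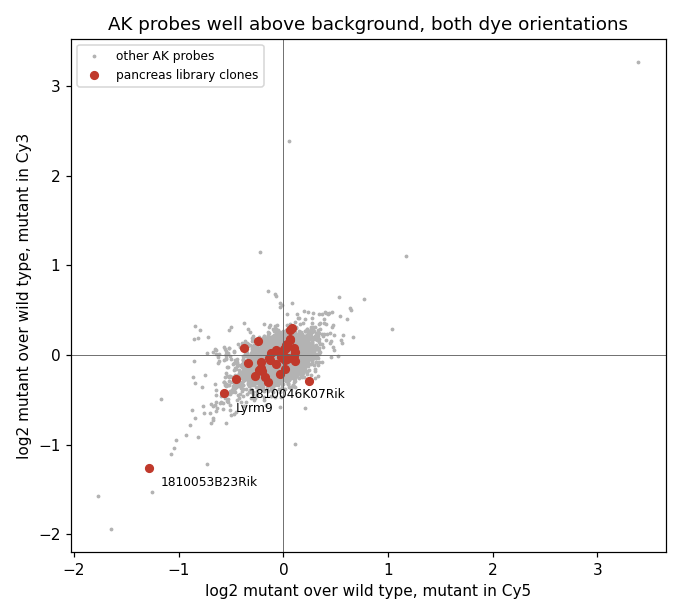
Log2 ratio of mutant over wild type with the mutant labelled in Cy5 (x axis) against the same with it in Cy3 (y axis), for 42 pancreas-library clones (red) and 9558 other AK probes (grey) well above background. The clone of 1810053B23Rik lies apart at -1.29 and -1.26, and most other clones lie within the cloud around 0.

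The centre of the set was close to that of other AK probes, and its lower side reached further down. The median ratio was -0.022 for the clones (-0.016 and -0.037 on the single arrays) and -0.0064 for the other AK probes, a difference of -0.016. The middle 50% of the clones ran from -0.15 to 0.03, against -0.06 to 0.04 for the other AK probes. Of the clones 40.5% were below 0 on both arrays, against 31.4% of the others, and 26.2% were above 0 on both, against 26.0%. Other AK probes within the intensity range of the middle 90% of the clones ran from -0.07 to 0.05 in their middle 50%, with a median of -0.0057. Among the 14 brightest clones the median was -0.066 and the lower quartile -0.17, and the 1663 other AK probes of that brightness had 0.0048 and -0.073. These values describe 2 pools, and differences between pups were not measured.

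By the descriptions in the files, 72 RIKEN libraries had at least 30 AK probes well above background. Among them the pancreas library had the lowest lower quartile, at -0.15, followed by adult male cerebellum at -0.13. These quartiles rest on 42 and 33 probes, so the rank by lower quartile can shift with few probes. The pancreas library ranked 8 of 72 by its median, which was lowest for 13 days embryo head at -0.04. It ranked 5 by the share of clones past the looser rule, at 4.76%, with 2 lower of 42. Ahead were adult male cerebellum at 12.1%, with 3 lower and 1 higher of 33, and 13 days embryo head at 7.27%. The latter had 3 lower and 1 higher of 55. Then came 8 days embryo whole body at 6.67%, with 6 lower and 1 higher of 105. The share for 10 days neonate medulla oblongata was 5.71%, with 2 lower of 35. These counts are small, so the rank by this share can shift with single probes. The pancreas library was the second brightest by median intensity. Among libraries of other digestive organs, the small intestine ranked next to it by the median, at -0.021, with a lower quartile of -0.052. Cecum had a median of -0.0091 and a lower quartile of -0.068, and colon -0.0085 and -0.075. Stomach had the highest median of the 72 libraries, 0.033, with a lower quartile of -0.028. The islet cell library had 12 of 15 AK probes well above background, with a median of -0.03 and a range of -0.20 to 0.03, and 0 passed either rule.

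**Figure D4:**
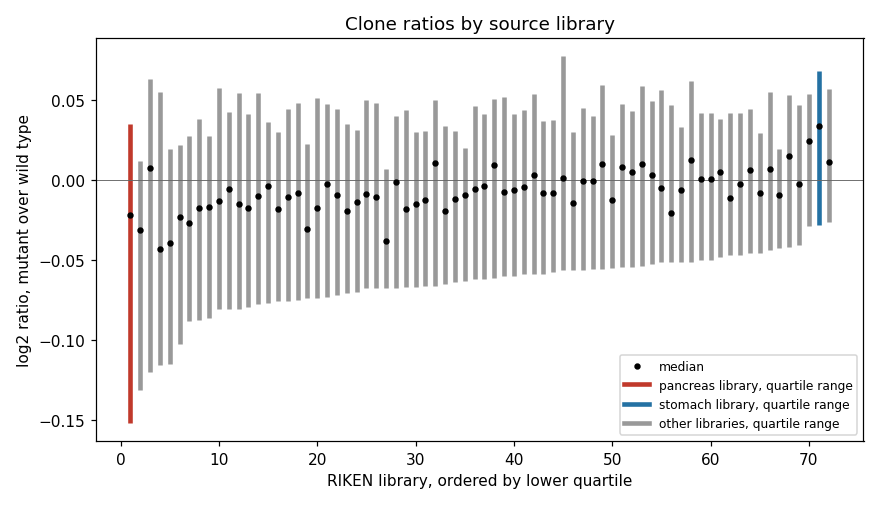
Log2 ratio of mutant over wild type (y axis) for the AK probes of 72 RIKEN libraries (x axis, ordered by lower quartile), as the median (black point) and the middle 50% of probes (bar). The pancreas library (red) has the lowest lower quartile, -0.15, over 42 probes. The stomach library (blue), which has the highest median, lies near the other end at -0.03.

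Genes from the same library that had received another identifier gave a further set. The files tie 155 probes outside the rule to a clone number of this library, 153 of them well above background, and several share a gene. They were brighter still, with a median log2 intensity of 9.09. Their median ratio was -0.06 and their middle 50% ran from -0.15 to 0.02, with 46.4% below 0 and 21.6% above 0 on both arrays. By the 2-fold rule 1 was higher and 0 lower, and by the looser rule 7 were lower and 2 higher, or 5.88%. The 1 higher was 1810009J06Rik, a trypsin-like protease gene, with signals of 65145 in the mutant against 23910 in the wild type and 56850 against 32530. It was not marked as saturated, but the first of these signals lies just under the 65285 to 65329 at which saturated spots of the set read. Its ratio of 1.49 on that array is therefore given as a lower bound, and that on the second array was 1.12. The lowest were 1810029C22Rik, at -0.95 and -1.01, and Rab43, a Rab GTPase gene, at -0.72 and -1.16. The other 3 Rab43 probes had mean ratios of -0.20, -0.14 and 0.05, so the probes of this gene disagreed. Chac1, a stress-induced enzyme gene, was the other higher one, at 0.47 and 0.56. These probes were chosen after the clones' values were seen. For comparison, 0.237% of all 38864 probes well above background passed the 2-fold rule and 2.1% the looser one. Of the 1663 other AK probes as bright as the 14 brightest clones, 2.71% passed the looser rule, against 1.2% of all other AK probes. No share was matched to the brightness of the 153 probes, so the part of brightness in the 5.88% was not tested.

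Other probes of the same genes, or tied to the same clones, gave ratios that often differed from the clones' own. For 9 clones well above background, 12 RefSeq probes of the same symbol could be compared. The Coa6 pair is among them, though its probes are listed in opposite orientations. Taking the brightest for each clone, the ratios differed by a median of 0.15 and by 0.29 at most, for Mmd, whose RefSeq probe had -0.27 and -0.30. Of the 9, 6 were within 0.2, and across these genes, which are not replicates, Pearson's r was 0.39 and Spearman's rho 0.32. The median gap was larger than the technical SD of a mean ratio, 0.07. Adding probes that share a transcript alias or name the clone gave 22 pairs for 17 clones, with a median difference of 0.10, and 12 of the 17 were within 0.2. In 1 of these pairs both probes are clones of the set (AK007728 and AK007385), so it counts for each of them. The widest gap was at 1810062O18Rik. That clone had signals of 113.3 in the mutant against 174.0 in the wild type, and 138.7 against 144.7. A probe described as similar to the same clone number (BC027232) had 182.9 against 409.2 and 180.7 against 310.3, with ratios of -0.86 and -0.82. It is tied by that description alone, so whether both probes read the same gene is not settled. For Cobll1 the brighter RefSeq probe had -0.03 and 0.05, where the clone had -0.18 and -0.25. For Paxbp1 the tied probe XM_358888 had 0.01 and -0.01, where the clone had -0.27 and -0.23. No tied probe was found for 1810053B23Rik, 1810046K07Rik or Lyrm9 under these ties, so the 3 lowest clones each rest on 1 probe.

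**Figure D5:**
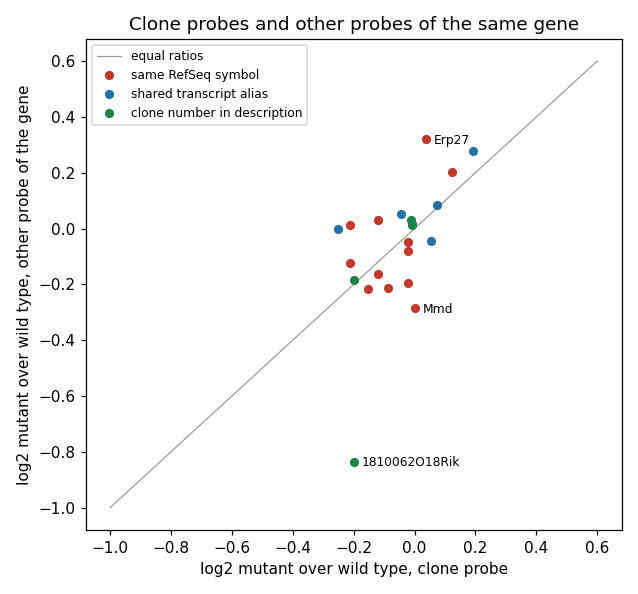
Log2 ratio of mutant over wild type of the clone probe (x axis) against that of a tied probe (y axis), for 22 pairs from 17 clones. Colours show how the files or RefSeq tie them, and not every tie is to the same gene. For 12 of the 17 clones the brightest tied probe lies within 0.2 of the line of equal ratios. 1810062O18Rik lies below it, at -0.20 by its clone and -0.84 by a probe tied through a description of similarity.

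Neighbouring probes were mostly flat. The files give coordinates for 42 of the 44 clones, and 38 of those have at least 1 other probe within 60 kb. The 160 such pairings with a neighbour well above background had a median ratio of 0.01. Of them 0 passed the 2-fold rule and 2 the looser rule, Ptf1a and Mllt11, which lies near the Gabpb2 clone and had -0.37 and -0.35. Among all probes well above background, 0.237% passed the 2-fold rule and 2.1% the looser one. By these counts the neighbours did not stand apart.

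Markers of cell types, chosen with earlier results known, differed between the pools beside these clones. Of 28 listed acinar digestive enzyme genes, 21 were named on the array and all 21 were well above background, 14 of them saturated in at least 1 channel. The other 7 had a median of -0.22, with 1 lower (2-fold rule) and 1 higher. Of 22 unsaturated islet and endocrine genes 9 were lower and 0 higher, with a median of -0.85, and 2 saturated ones were left out. Of 6 unsaturated regenerating protein genes 4 were higher, and 1 saturated gene was left out. Of 13 skeletal muscle genes, a tissue outside the pancreas, 10 were higher and 0 were below background. Their summed signal was 25688 and 23335 in the mutant pool against 5337 and 4393 in the wild-type pool. Duct (0.28), mesenchyme (0.19), blood and immune (0.28) and endothelial (-0.35) genes had 0 members past the 2-fold rule. Over all 38864 probes well above background, 0.0952% were lower and 0.142% higher by that rule. The part of these marker differences in the clones' ratios was not tested.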

How the data were processed

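Per the labels, RNA was amplified, labelled with Cy3 or Cy5 and hybridised to Agilent whole mouse genome oligonucleotide arrays. The deposited scanner files hold mean and local background intensity values on a linear scale, not normalised, and, per the file headers, processed signals with a log10 ratio of Cy5 over Cy3. Per the submitters' processing notes the software was Agilent Feature Extraction 7.5, though the file headers record another module version, so which made the values is not settled. The value table deposited for the series holds log2 ratios, which equalled the software's mutant over wild-type ratio within 0.002 for 99.9% of probes on each array, with a median of 0.

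Background was corrected by normexp with an offset of 50, using R 4.3.3, limma 3.58.1 and the data.table package (version 1.17.8). Loess followed within each array, which assumes that most probes do not change. Control spots had weight 0. Spots marked as outliers (15 and 53) were left out. The sign of each array was set so that above 0 means higher in the mutant, and the arrays were averaged. The steps were tested on simulated data. Python 3.11.15, numpy 2.4.6, pandas 2.3.3 and matplotlib 3.10.9 were used for the rest. Each array had 41534 gene spots. Median gene-spot intensities were 208.2 and 209.7 (mutant), and 265 and 207 (wild type). The number of arrays limits the precision.

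Named clones were all past either rule, the 5 highest, 5 lowest and 5 brightest, the 3 nearest the looser limit on each side, and members of the listed marker genes. Further clones were named by function after their values were seen. The clones, lists and rules were chosen with earlier results of these data known. Alternatives were another offset, centring, filter and ratio source, saturation, and each array alone. Probe sequences were not used here.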

Additional observations from a re-analysis of the deposited data

How the results depend on the processing

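The clone of 1810053B23Rik was the 1 clone past the 2-fold rule under every setting run. By the ratios of the scanner software the median of the clones was -0.038 and 4 clones passed the looser rule, and the value table of the series gave -0.038 and 4 as well, those of Cobll1 (lower) and Tmem273 (higher) added. Median centring moved the difference of medians from other AK probes from -0.016 to -0.043 and raised the count past the looser rule from 2 to 3, adding 1810046K07Rik. The cause of these shifts was not tested. The median over probes outside the rule that were tied to the library by clone number, an alternative chosen after seeing the data, was -0.057. With 1 array alone the clones' median ran from -0.037 to -0.016, its difference from other AK probes from -0.030 to -0.0084, the count past 2-fold from 1 to 1 and that past the looser rule from 2 to 5. The 5 came with the mutant in Cy5 alone, which added 1810046K07Rik, AK007620 and Cela1. A single array asks for no agreement between arrays, so more probes of any set can pass. The share of other AK probes past each rule under the alternative settings is not given here. The changes in these counts are therefore not read as a result about the clones. For the 15 clones followed singly, an offset of 0, the software's ratios and median centring moved 15 of 45 values by more than the spread between the arrays, and 0 called values reversed. The filters on dim or saturated spots could not change a single clone's ratio. No paired analysis was possible because each genotype is 1 pool, compared on 2 arrays.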
